A study of Homo sapiens with 6 samples.

Results

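RPB1, the largest subunit of RNA pol II, and its form phosphorylated at serine 2 of the C-terminal repeats were mapped by ChIP-seq in HepG2 cells, a human liver tumor line. The cells were untreated and were either SHP-1 WT, a CRISPR control line, or SHP-1 KO, a line in which CRISPR was used to knock out PTPN6, the gene of the tyrosine phosphatase SHP-1. The KO lines of the study were clonal, and the labels give 1 library per antibody and genotype plus 2 input libraries. No difference between genotypes below therefore has a replicate check, no p-value was computed, and a difference between the lines cannot be told apart from a difference between clones or between immunoprecipitations.

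The genes described are 7 neighbours on the short arm of chromosome 11, in band 11p15.5: CTSD, SYT8, TNNI2, LSP1, TNNT3, H19 and IGF2, in order toward the centromere. They were chosen by their position and by measured values of these lists, since TNNI2 and SYT8 had RPB1 regions in SHP-1 WT and none in SHP-1 KO. That loss is the basis of the choice and is described here without being tested. A region is a stretch called as enriched over the input of the same cells, its gene is the one named beside it in the deposited list, and its fold enrichment is the ratio over input at the summit. Of 271336 regions in the 4 lists, 41 were assigned to the 7 genes.

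IGF2 encodes a fetal growth factor that is made from several promoters, and H19 encodes a long noncoding RNA. The pair is a textbook case of imprinting: the paternal copy of IGF2 and the maternal copy of H19 are usually the active ones, and CTCF bound at a control region between them keeps shared enhancers from IGF2 on the maternal chromosome. The lists do not separate the parental alleles. TNNI2 and TNNT3 encode the fast skeletal muscle forms of troponin I and troponin T, SYT8 encodes a member of the synaptotagmin family of membrane trafficking proteins, LSP1 encodes an actin-binding protein of leukocytes, and CTSD encodes the lysosomal protease cathepsin D. Phosphorylation at serine 2 marks the elongating polymerase and rises toward the 3′ end of transcribed genes.

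A pair of hg38 sequences shows the kinds of site that the results turn on, a promoter occupied in both genotypes and a summit found in SHP-1 WT only. Capitals mark CG dinucleotides, the sites of DNA methylation in vertebrates. The first sequence is the 30 bases just before the RefSeq start of CTSD (chr11:1763928-1763957, minus strand), which lie inside the strongest CTSD region of both RPB1 lists. The second is the 30 bases around the summit of the strongest TNNI2 region (chr11:1842828-1842857, plus strand), downstream of the gene and inside the only stretch of the SYT8 and TNNI2 neighbourhood that both antibodies enriched. Each holds 3 CG dinucleotides.
CTSD promoter: tgcaaacaCGCGggtcagctgatcCGgccc
TNNI2 downstream summit: ggactgaCGtcagtgggctccCGggaCGgc

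In SHP-1 WT, 4 of the 7 genes had RPB1 regions: 8 at TNNI2, 6 at SYT8, 3 at CTSD and 1 at IGF2, 18 in all of 46045 in the list. In SHP-1 KO, 2 of the 7 had RPB1 regions: 4 at CTSD and 1 at IGF2, 5 in all of 41605. In the phospho-Ser2 RPB1 lists, SHP-1 WT had 9 regions at CTSD, 3 at IGF2 and 1 at TNNI2, and SHP-1 KO had 4 at CTSD and 1 at IGF2. H19, TNNT3 and LSP1 had no region in any of the 4 lists. Over all genes with an RPB1 region in SHP-1 WT, 9.09% had none in SHP-1 KO, and 2 of the 4 genes here did. Because the genes were chosen for that, nothing is read from the share. For phospho-Ser2 RPB1 the loss was 14.7% over all genes, and 1 of the 3 genes with a region in SHP-1 WT, TNNI2, had none in SHP-1 KO.

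**Figure D1:**
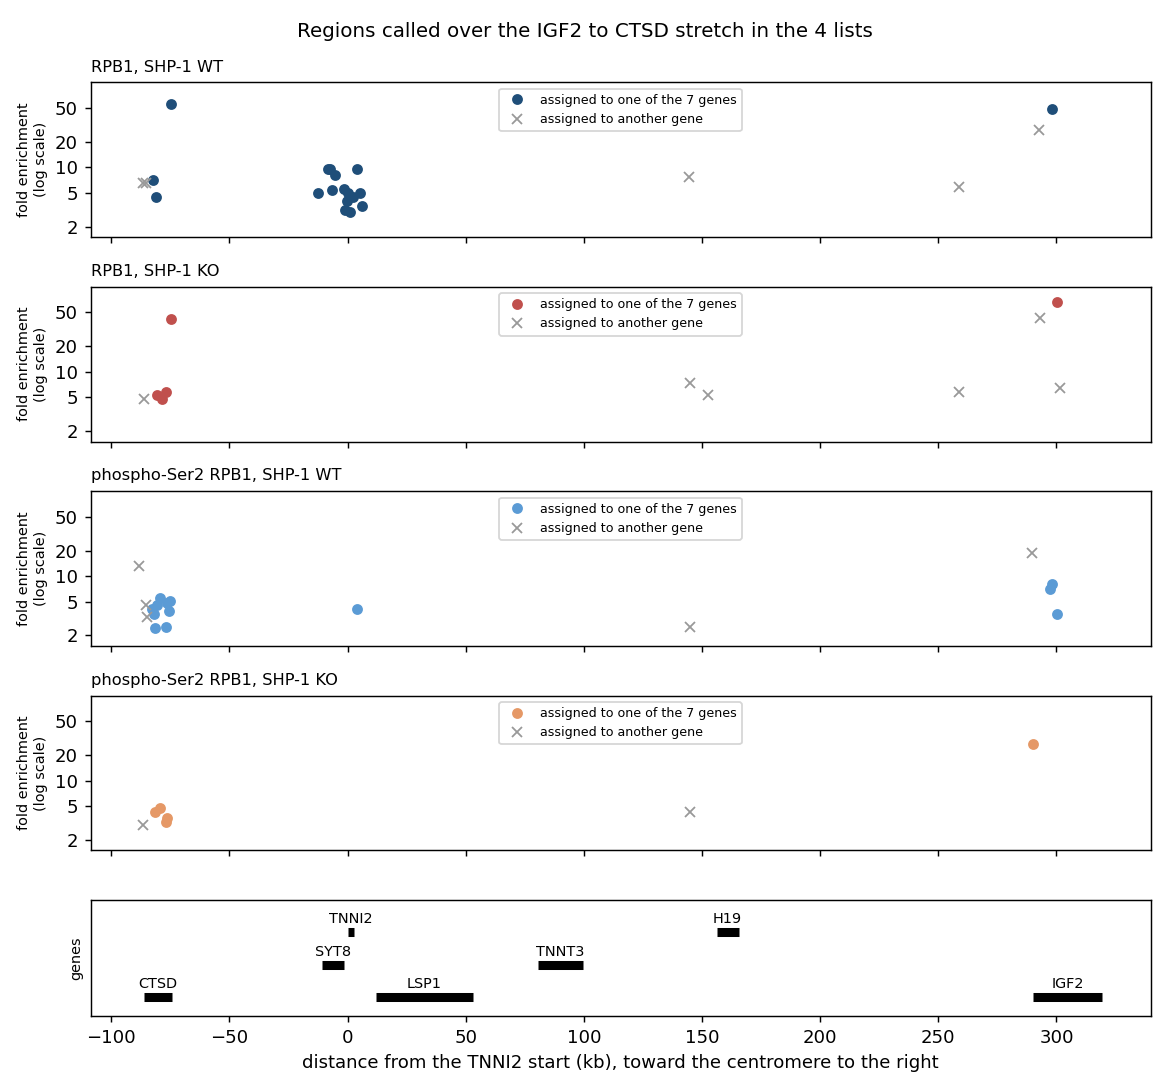
Fold enrichment over input at the summit (log scale) of every region between CTSD and IGF2, against the distance in kb from the TNNI2 start, in 1 panel per list. Filled circles are regions assigned to one of the 7 genes, crosses are regions assigned to another gene, and black bars are the gene spans. The group of 14 RPB1 regions around 0 kb is present in SHP-1 WT and absent in SHP-1 KO, while the strong regions at CTSD and IGF2 are present in both.

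The RPB1 regions of SYT8 and TNNI2 formed 1 unbroken group in SHP-1 WT. The 14 regions lay at chr11:1826513-1845217, a stretch of 18705 bp of which they covered 8263 bp, or 44.2%. The gaps between them ran from 71 to 3046 bp, with a median of 426 bp. They were short, at 205 to 2166 bp with a median of 349 bp, and moderate in strength, at 3.00- to 9.51-fold with a median of 5.01-fold. The median of all SHP-1 WT RPB1 regions was 5.51-fold, and 4 of the 14 were above it.

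SYT8 had the stronger regions of the pair, with a median of 6.76-fold. The strongest region of SYT8 lay at chr11:1831462-1831922, at 9.51-fold and rank 13260 of 46045, or the top 28.8% of the list. The region before it in the gene, at chr11:1829786-1831251, was nearly as strong at 9.46-fold and had the highest −log10 q-value of the group, 20.7. The remaining regions of SYT8 reached 8.01-, 5.51-, 5.35- and 4.91-fold. The weakest of them, at chr11:1826513-1826739, had its summit 1663 bp before the first GENCODE start of the gene and was the only SYT8 region annotated as distal intergenic. The deposited lists annotated 4 of the 6 as promoter, with summits 2613, 3354, 4190 and 5563 bp downstream of that first start. Their distance from other starts of SYT8 was not computed. The last region, annotated as 3′ UTR, had its summit in the final stretch of SYT8, 9177 bp from its start.

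TNNI2 lies just downstream of SYT8 on the same strand, and its 8 regions were weaker, with a median of 4.26-fold. Around its start, 3 regions with summits at 960 and 397 bp upstream and 79 bp downstream reached 3.14-, 4.01- and 5.01-fold. Inside the gene, the regions with summits at 1225 and 2419 bp reached 3.00- and 4.51-fold. The region nearest the start thus ranked 26658 in the list, and the weakest ranked 45666, close to the bottom. The strongest region of TNNI2 did not lie in the gene. It lay at chr11:1841728-1843893, with its summit 3861 bp from the TNNI2 start and past the end of the gene, was annotated as distal intergenic, and reached 9.51-fold, the same listed value as the strongest SYT8 region. Beyond it, regions with summits 5211 and 6166 bp from the start reached 5.01- and 3.49-fold. Counted over the gene and its 3 kb upstream, without the downstream regions, the strongest region was the last one of SYT8 at 5.51-fold.

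In SHP-1 KO, none of the 14 regions was overlapped by an RPB1 region of any gene, whereas over all SHP-1 WT RPB1 regions 38.1% were not overlapped. The SHP-1 KO list held no region at all between the end of the CTSD region at 1764603 and the MRPL23-AS1 region that began at 1983626, a gap of 219022 bp. In SHP-1 WT the 14 regions were the only ones between 1764826 and 1983516. The SHP-1 KO list held many regions with such values: its 5th percentile was 3.61-fold and its median 5.62-fold, and 11 of the 14 exceeded the first and 4 the second. By the strongest region per gene, 82.1% of genes with regions in both were lower in SHP-1 KO, with a median ratio of 0.742. The comparison of the 14 with those percentiles does not allow for that difference. With no signal below the calling threshold in the lists, a region not called in SHP-1 KO has no value there, and the size of the difference cannot be given.

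**Figure D2:**
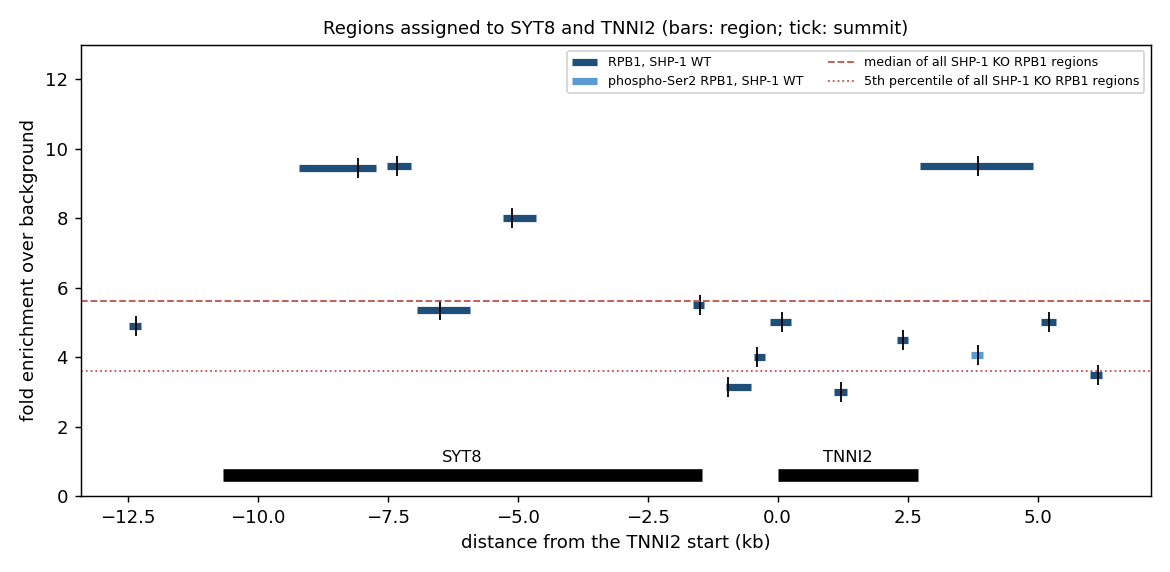
Fold enrichment over input of the regions assigned to SYT8 and TNNI2 against the distance in kb from the TNNI2 start. Horizontal bars span each region, ticks mark summits, black bars are the genes, and the dashed and dotted lines give the median (5.62) and 5th percentile (3.61) of all SHP-1 KO RPB1 regions. All bars are from SHP-1 WT, since SHP-1 KO had none here, and the strongest lie within SYT8 and downstream of TNNI2.

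Phospho-Ser2 RPB1 was called at 1 place in the stretch, in SHP-1 WT. The region at chr11:1842694-1842924 reached 4.06-fold, ranked 36033 of 102674, and lay within the strongest TNNI2 RPB1 region, with the summits of the 2 antibodies at 1842834 and 1842842. No phospho-Ser2 RPB1 region was called over the SYT8 or TNNI2 gene bodies in either genotype. Of the 14 RPB1 regions, 1 thus also carried a phospho-Ser2 RPB1 region, and 13 did not. The share over all SHP-1 WT RPB1 regions is not given here, so nothing is read from this count.

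Several regions lost together at 1 gene were uncommon in the lists. Of 2314 genes with at least 6 RPB1 regions in SHP-1 WT, 0.562% had none in SHP-1 KO. The cutoff of 6 was the number at SYT8, so TNNI2 and SYT8 are among these 13 genes by construction. The others were MIR551A with 28 regions, RAB31 with 8, CCL16 and MISP with 7 each, and CDH1, CPNE1, DNAJC7, MIR4274, PCK1, PLCH2 and PNCK with 6 each, named after their values were seen. PCK1, the rate-limiting enzyme of gluconeogenesis and the gene the study is about, thus had as many SHP-1 WT regions as SYT8. Read in genome order, the SHP-1 WT RPB1 list held 9344 runs of consecutive regions without a SHP-1 KO overlap. The run of 14 at SYT8 and TNNI2 was exceeded in number by 6 runs, the longest of which held 44 regions from MEGF6 to TPRG1L. These counts use the same contrast that chose the genes and describe where they stand in it.

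The GC content of the 14 regions ran from 49.6% to 70.3% with a median of 65.9%, against a median of 56.6% over the 2573 SHP-1 WT RPB1 regions of chromosome 11. The strongest regions of CTSD and IGF2, which SHP-1 KO also had, were at similar values of 64.8% and 67.5%. The median was 54.5% over the 1014 chromosome 11 regions without a SHP-1 KO overlap and 57.7% over the 1559 with one. The median density of CG dinucleotides was 2.95 per 100 bp in the 14 regions and 2.39 over all of chromosome 11, with 2.0 in the regions without a SHP-1 KO overlap and 2.97 in those with one. The part of base composition in the loss was not tested.

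IGF2 had strong RPB1 regions in both genotypes. By its strongest region it ranked 1802 of 14164 genes in SHP-1 WT and 172 of 13459 in SHP-1 KO. In SHP-1 WT its region lay at chr11:2134976-2139890, reached 49.1-fold and ranked 1826 of 46045 regions, in the top 3.97%. In SHP-1 KO the matching region lay at chr11:2134893-2140228, reached 66.3-fold and ranked 172 of 41605 regions, in the top 0.413%. The ratio of SHP-1 KO to SHP-1 WT was 1.35. Over the 12877 genes with an RPB1 region in both genotypes the median of this ratio was 0.742, and 4.54% of genes were at or above IGF2, which ranked 584. Past 1.5-fold, 36.1% of genes were lower and 2.68% higher in SHP-1 KO. IGF2 was in neither group. Divided by the median of all genes, the IGF2 ratio was 1.82 and past 1.5-fold, as it was for 11.3% of genes.

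The summit within IGF2 lay at different starts in the 2 genotypes. GENCODE release 44 lists 10 starts for IGF2 over 21104 bp. In SHP-1 WT the RPB1 summit was at 2137240, beside the 3 most downstream starts at 2137287, 2137290 and 2137305. In SHP-1 KO it was at 2139312, beside the start at 2139389. Both regions covered these 4 starts and the one at 2138974, so the covered starts were the same in both genotypes while the highest point lay elsewhere. The 5 starts further upstream, from 2141016 to 2158391, were covered in none of the 4 lists. A weak region of 6.34-fold at chr11:2140287-2140547, assigned to the antisense gene IGF2-AS, was called in SHP-1 KO only and lay between the covered and the uncovered starts.

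The downstream part of IGF2 was covered by a second RPB1 region that the lists assigned to MIR483, a microRNA gene within IGF2. This region reached 27.5-fold and rank 6190 in SHP-1 WT (chr11:2128330-2134897) and 43.3-fold and rank 1018 in SHP-1 KO (chr11:2127996-2134751), and the ratio of the strongest MIR483 regions was 1.57. By position, RPB1 regions covered 33.2% of IGF2 and its 3 kb upstream in SHP-1 WT and 34.8% in SHP-1 KO. The ratio of covered length was 1.05, a measure unlike the summit ratios.

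**Figure D3:**
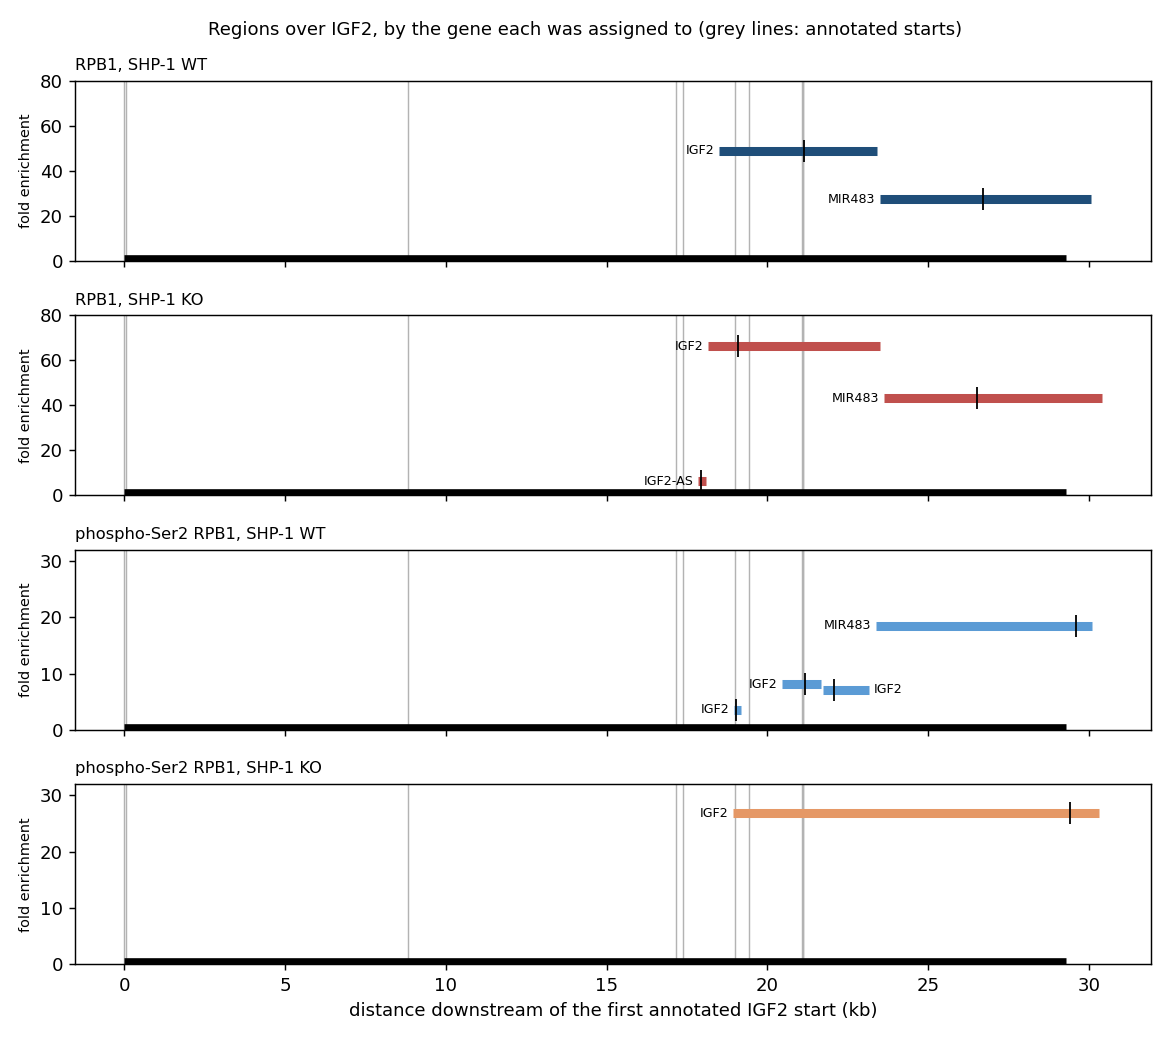
Regions over IGF2 in the 4 lists, plotted as fold enrichment over input against the distance in kb downstream of the first annotated IGF2 start, each labelled with the gene it was assigned to. Horizontal bars span the regions, ticks mark summits, grey lines mark the 10 annotated starts and the black bar marks the gene. RPB1 regions at the downstream starts reach 49.1 in SHP-1 WT and 66.3 in SHP-1 KO, and the single phospho-Ser2 RPB1 region of SHP-1 KO spans what 4 regions hold in SHP-1 WT.

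Phospho-Ser2 RPB1 at IGF2 was also higher in SHP-1 KO, by an amount that depended on how regions were assigned. In SHP-1 WT the 3 IGF2 regions reached 8.13-, 7.11- and 3.56-fold, the strongest ranking 3700 of 102674. In SHP-1 KO 1 region of 11375 bp at chr11:2128086-2139460 reached 26.9-fold and ranked 28 of 81012, in the top 0.0346%. The ratio by assigned gene was 3.30, the 13th highest of 10870 genes, beside a median of 0.936. Over all of them, 5.71% were higher and 11.7% lower past 1.5-fold. However, the SHP-1 WT list also held a region of 18.5-fold at chr11:2128310-2135023, ranked 261, that lay over the downstream part of IGF2 and was assigned to MIR483. With regions taken by position the ratio was 1.45, and the covered share of IGF2 was 27.1% in SHP-1 WT and 32.1% in SHP-1 KO. The summits of the 2 strongest regions, at 2128798 in SHP-1 WT and 2128972 in SHP-1 KO, lay just past the annotated 3′ end of the gene at 2129112.

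H19, the imprinted partner of IGF2, had no region in any list, and no region of any gene overlapped it or the 3 kb upstream. The nearest RPB1 region lay 11121 bp away in SHP-1 WT, a 7.58-fold region assigned to MRPL23-AS1. In SHP-1 KO it lay 3514 bp away, a 5.28-fold region at chr11:1991453-1991652 assigned to LINC01219 that SHP-1 WT did not have. For phospho-Ser2 RPB1 the nearest regions were 11259 and 11242 bp away, at 2.51-fold in SHP-1 WT and 4.29-fold in SHP-1 KO.

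LSP1 and TNNT3 were empty as well. The nearest RPB1 region to LSP1 in SHP-1 WT was the last of the TNNI2 regions, 5687 bp before its start. In SHP-1 KO the nearest was that of CTSD, 86301 bp away. TNNT3, the other fast skeletal muscle troponin of the locus, was 44810 bp from the nearest RPB1 region in SHP-1 WT and 44920 bp in SHP-1 KO, both at MRPL23-AS1. The lists hold regions above the threshold of the caller, so these genes had no called region at the depth of the libraries, which the files do not state.

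CTSD had the strongest RPB1 region of the 7 genes in SHP-1 WT, over its promoter. The region at chr11:1758418-1764826 reached 55.4-fold and ranked 1202 of 46045. In SHP-1 KO the region at chr11:1762437-1764603 reached 41.2-fold and ranked 1198 of 41605. The ratio of 0.744 was near the median of all genes, with 50.3% of genes at or below it, and the summits lay 6 bp apart at 1764143 and 1764149.

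Away from the promoter, the regions called over the CTSD gene body also differed. The promoter region of SHP-1 WT, 6409 bp long, ran 6156 bp into the gene, and in SHP-1 KO the same stretch held a region of 2167 bp and 3 weak ones at 5.81-, 5.28- and 4.75-fold. Toward the 3′ end, SHP-1 WT had regions at 7.01- and 4.51-fold that no SHP-1 KO region overlapped. By position, with IFITM10 regions counted, RPB1 regions covered 71.9% of CTSD and its 3 kb upstream in SHP-1 WT and 25.0% in SHP-1 KO. The ratio of 0.348 includes the promoter and is a measure unlike the summit ratio. The covered share was not computed over all genes, so whether this is particular to CTSD is not known. Of all SHP-1 WT RPB1 regions, 38.1% had no SHP-1 KO overlap.

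Phospho-Ser2 RPB1 over CTSD followed the same order. Its 9 regions in SHP-1 WT reached 2.43- to 5.59-fold and its 4 in SHP-1 KO reached 3.26- to 4.71-fold, a ratio of 0.843 between the strongest. By position the covered share was 51.1% in SHP-1 WT and 6.94% in SHP-1 KO, a ratio of 0.136, again without a value over all genes. The 508 bp region at the promoter, 5.08-fold in SHP-1 WT, had no counterpart in SHP-1 KO. At the 3′ end, a region of 13.3-fold in SHP-1 WT (chr11:1749028-1752981) crossed the end of CTSD and was assigned to the next gene, IFITM10, with which CTSD shares a readthrough transcript. With that region counted the ratio was 0.355, but it sets unlike places side by side, since the SHP-1 WT summit lay 2132 bp past the end of CTSD and the SHP-1 KO value of 4.71-fold was inside the gene. The SHP-1 KO list had its own IFITM10 region just past that end (chr11:1749884-1752273), at 7.33-fold, and the ratio of the IFITM10 regions was 0.552. Of the 13 phospho-Ser2 RPB1 regions of the 7 genes in SHP-1 WT, 7 were overlapped in SHP-1 KO, and over the whole list 47.8% were not overlapped.

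**Figure D4:**
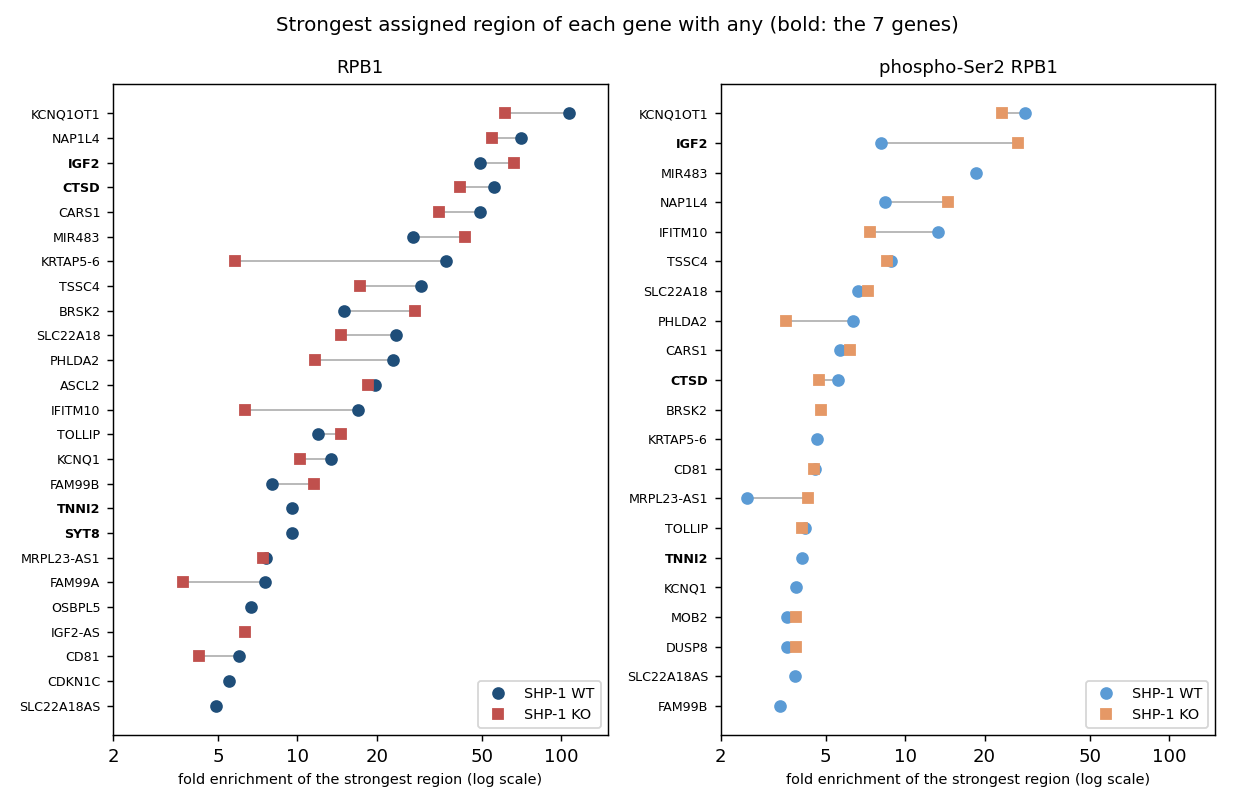
Fold enrichment over input of the strongest assigned region (log scale) of each gene from CTSD, IGF2 and their neighbours on 11p15.5 that had any region, for RPB1 and for phospho-Ser2 RPB1. Circles are SHP-1 WT, squares are SHP-1 KO, grey lines join the 2 values of a gene, and the 7 genes are in bold. Most RPB1 squares lie to the left of their circles. IGF2, MIR483, BRSK2, TOLLIP and FAM99B have theirs to the right, and SYT8, TNNI2, CDKN1C, SLC22A18AS and OSBPL5 have a circle only.

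Neighbours on both sides gave the setting of these values. Of 11 other genes of the IGF2 and H19 domain, 3 had an RPB1 region in both genotypes, with a median ratio of 0.975, and MIR483 was the strongest. INS, TH and MIR675 were among the 7 without any. Of 13 genes from IFITM10 toward the telomere, 6 had RPB1 regions in both genotypes, 3 of them lower and 3 higher in SHP-1 KO, and none was lost. The strongest of them in SHP-1 WT, KRTAP5-6, reached 36.6-fold there and 5.81-fold in SHP-1 KO, where BRSK2 was the strongest of the 6. In the KCNQ1 domain, the second imprinted domain of the band, 8 of 13 genes had RPB1 regions in both genotypes and all 8 were lower in SHP-1 KO, with a median ratio of 0.658. Over all 12877 genes with regions in both, 82.1% were lower in SHP-1 KO and the median was 0.742, so a ratio below 1 was the common case. The strongest there was KCNQ1OT1, the noncoding RNA of that domain, at 107- and 61.4-fold. CDKN1C at 5.51-fold, SLC22A18AS at 4.91-fold and OSBPL5 at 6.69-fold had RPB1 regions in SHP-1 WT only. They were 3 of the 11 genes of that domain with a SHP-1 WT region, beside 9.09% over all genes. They held 1, 3 and 2 regions, against the 6 and 8 of SYT8 and TNNI2.

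Within 1 Mb, no other gene combined as many SHP-1 WT regions with none in SHP-1 KO. By the summed difference in the 4 region counts, the gene nearest to both SYT8 and TNNI2 was FAM99A, with 4 RPB1 regions in SHP-1 WT, 1 in SHP-1 KO and no phospho-Ser2 RPB1 region, at a difference of 3 from SYT8 and 6 from TNNI2. KRTAP5-AS1 came next, with 3 and 1 RPB1 regions, at 4 and 7. Both genes also occur in alternate contigs of hg38, and whether those were part of the aligned genome is not given in the sources used here, so their counts are uncertain. From BRSK2 to NAP1L4, a stretch of 1.60 Mb, 50.8% of 120 SHP-1 WT RPB1 regions were overlapped in SHP-1 KO (95% Wilson interval 42.0 to 59.6). The interval holds counting error only and takes neighbouring regions as independent, although lost regions came in runs. Without the 14 regions of SYT8 and TNNI2 the share was 57.5% of 106 (48.0 to 66.5), beside 61.9% over the whole list. For phospho-Ser2 RPB1 it was 51.9% of 106, beside 52.2%.

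Genes that act with IGF2 were occupied in both genotypes. Of 9 receptors, mRNA-binding proteins and imprinting factors, 8 had RPB1 regions in both, all lower in SHP-1 KO, with a median ratio of 0.760 beside 0.742 over all genes. IGF2R, the receptor that clears IGF2, was the strongest in SHP-1 WT, at 59.7-fold, and stood at 31.2-fold in SHP-1 KO, where INSR was the strongest at 39.7-fold. CTCF, the insulator protein of the imprinting control region, was at 29.6- and 27.3-fold. ZFP57 had no region. Of 6 other troponin genes, TNNI3, the cardiac troponin I gene, had 1 RPB1 region of 8.21-fold in SHP-1 WT and none in SHP-1 KO, as did 9.09% of all genes. Of the rest, 3 had RPB1 regions in both genotypes, with a median ratio of 0.678. Of 6 other synaptotagmins, SYT7 alone had an RPB1 region, in both genotypes and at a ratio of 0.649.

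The lists as a whole carried the marks of a liver line. All 6 liver marker genes had RPB1 regions in SHP-1 WT and 4 of them in SHP-1 KO, with ALB at 24.4- and 24.1-fold. The muscle factors MYOD1 and MYOG and the muscle enzyme gene CKM had none, and neither had the leukocyte genes PTPRC and CD3E. PTPN6, the targeted gene, had 3 RPB1 regions in SHP-1 WT and 1 in SHP-1 KO, with the strongest at 24.0- and 17.2-fold. CRISPR changes the sequence of a gene and need not stop its transcription, so occupancy at this gene does not check the knockout. Of the 50-base windows taken every 10 bp across the 7 genes, at most 0.162% in any gene also occurred in the alternate contigs of chromosome 11 in hg38. The share was 100% for FAM99A, KRTAP5-AS1 and KRTAP5-6, 86.8% for CDKN1C and 82.9% for SLC22A18AS, whose values are uncertain for that reason.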

How the data were processed

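The authors trimmed reads with Trimmomatic, aligned them to GRCh38/hg38 with BWA and, library by library, ran MACS2 for narrow peaks with the matching input as background (tool versions not given in the sources used here). Each row of the deposited lists is a region with its summit fold enrichment (a ratio to input), its −log10 p-value and q-value, and the feature and gene it was annotated with. A deposited csaw table of RPB1 holds only the authors' own comparison and was not used, and the inputs were not analysed here. Read counts are in none of the files used, and depth is therefore unknown.

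Regions were matched by the listed gene symbol, or by position, over the gene and the 3 kb before its start. Overlap required at least 1 bp. Ranks run from the highest fold enrichment. Gene spans came from GENCODE release 44, which held 17 of 17 listed transcripts of the genes, 12 with the same start and end. The RefSeq promoter table of the same build held 2 of the 7 genes, H19 and CTSD. Python 3.11.15, pandas 2.3.3, NumPy 2.4.6, SciPy 1.17.1 and Matplotlib 3.10.9 were used, and the overlap functions were tested on simulated data. The genes named are the 7 chosen, and from fixed lists of neighbours, related genes and cell type markers those with a region in 1 genotype or the highest fold enrichment, with a few more named beside their counts. The members and lists were chosen with earlier results of these data known.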

Additional observations from a re-analysis of the deposited data

How the results depend on the processing

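With 1 library per antibody and genotype there was no test, and the limits below are of counting and assignment. The 2 genes with RPB1 regions in SHP-1 WT only, TNNI2 and SYT8, were the same genes under each of the 5 alternatives run: a minimum of 5 on the −log10 q-value, position in place of the listed gene, no distal intergenic regions, promoter regions only, and duplicate rows once. The matching count for phospho-Ser2 RPB1, 1 gene, became 0 under the first 4 of these. Under the minimum of 5, the regions of the 7 genes numbered 9 for RPB1 in SHP-1 WT, 6 for phospho-Ser2 RPB1 in SHP-1 WT and 3 in SHP-1 KO. By position the SHP-1 KO RPB1 regions numbered 8. A reciprocal overlap of 50% left 0 of the 13 SHP-1 WT phospho-Ser2 RPB1 regions shared and 5.56% of those of RPB1. The phospho-Ser2 RPB1 ratios by position, an alternative chosen after seeing the data, were 1.45 for IGF2 and 0.355 for CTSD. Divided by the median ratio of all genes, IGF2 RPB1 went from 1.35 to 1.82, past 1.5-fold. Of the 52 alternatives, 41 stayed within 1.5 times the reported count or ratio, as the 1.82 did, or within the interval of a share. For RPB1 that share was 11.1%, or 2 of 18 regions, and its interval was wide. Values of 22.2%, under the minimum of 5 and by position, and of 5.56% therefore counted as unchanged. No paired analysis was possible because each group has 1 library. A fold enrichment is a ratio at 1 summit, and regions not called have no value, so the lists cannot show how much signal remained at SYT8 and TNNI2.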
